A study of Mus musculus with 15 samples.

Results

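Interferon-stimulated genes are the genes that cells switch on, or keep on at a low level, when interferons signal. The account covers 43 of them, out of 53546 gene symbols in the count table. They were listed by name, and the list was chosen with earlier results of these data known. All 43 were in the table and all 43 passed the filter on low counts, which kept 14683 genes for testing.

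The study used bulk RNA-seq of CD206+ macrophages sorted from the dura mater, the outer membrane around the brain, and asked how these cells differ between ages. The groups were E14.5, P3, P10, P21 and P56 (E for embryonic and P for postnatal day), with 3 libraries per age and 15 in all. Every animal was C57BL/6J with the genotype Cx3cr1GFP/wt, so 1 allele of Cx3cr1 carried GFP at all ages, and none was treated. The labels put the P56 libraries in a sequencing project of their own, so at P56 age and project cannot be told apart. According to the series text, between 3 and 5 single mice were used for each age, and p-values measure the spread between the libraries labelled as replicates.

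Type I interferons bind the receptor made of Ifnar1 and Ifnar2. Its kinases set off a complex that holds STAT2 and IRF9 and binds the interferon-stimulated response element (ISRE) in promoters. Interferon gamma acts through Ifngr1 and Ifngr2, and its signal reaches the gamma-activated site (GAS). The products bind viral RNA, cut or sense foreign nucleic acids, block membrane fusion or act back on the pathway, and tissue macrophages are known to hold many of them at a basal level.

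Promoter letters of the members were read from RefSeq (build GRCm38.p6), in windows from 250 bases before to 50 bases after each annotated start. The build behind the deposited counts is not given in the sources used here, so the coordinates belong to RefSeq only. The letters GAAA, any 2 bases and GAAA again, searched on both strands as a short form of the ISRE, stood in 19 of the 32 members with a promoter entry (59.4%), beside 421 of 10731 tested genes with one (3.92%). The letters TTC, any 3 bases and GAA, a short form of the GAS, stood in 8 of 32 (25%), beside 887 of 10731 (8.27%). A match is a description of letters, and matches overlap where repeats run together. The windows below are from members of the IFIT, ISG15, OAS, GBP, IRG and IFITM groups whose values are given later. They run 5′ to 3′ on the strand of the gene, and capitals mark the match or its reverse complement.
Ifit1, chr19:34640765-34640833, plus strand: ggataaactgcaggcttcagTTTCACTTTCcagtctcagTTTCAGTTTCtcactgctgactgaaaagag
Ifit3, chr19:34583353-34583436, plus strand: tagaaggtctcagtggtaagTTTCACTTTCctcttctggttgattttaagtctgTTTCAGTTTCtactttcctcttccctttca
Ifit3b, chr19:34607749-34607832, plus strand: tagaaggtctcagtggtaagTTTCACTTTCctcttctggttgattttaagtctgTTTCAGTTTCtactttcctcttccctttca
Isg15, chr4:156200855-156200916, minus strand: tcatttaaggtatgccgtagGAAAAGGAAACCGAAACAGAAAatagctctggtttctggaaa
Oas3, chr5:120777705-120777754, minus strand: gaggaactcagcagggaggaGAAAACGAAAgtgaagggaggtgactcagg
Gbp2, chr3:142620584-142620633, plus strand: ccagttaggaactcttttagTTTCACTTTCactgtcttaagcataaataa
Irgm1, chr11:48871421-48871470, minus strand: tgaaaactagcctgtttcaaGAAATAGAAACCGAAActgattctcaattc
Ifitm2, chr7:140955978-140956027, minus strand: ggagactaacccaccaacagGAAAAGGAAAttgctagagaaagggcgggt
Ifitm3, chr7:141010714-141010743, minus strand: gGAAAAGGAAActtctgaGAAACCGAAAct

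The Ifit1 window holds 2 separate matches, the first starting 104 bases before the annotated start. The Ifit3 and Ifit3b windows were identical in 84 of 84 bases. The Isg15 run holds 3 overlapping matches and the Irgm1 run holds 2. The 2 Ifitm3 matches lie just past the annotated start. Of the 19 members with the ISRE letters, 11 were higher at P21 than at E14.5 by the test described next, and so were 9 of the 13 members with an entry but without these letters. Over all tested genes, 7.81% were called higher in this comparison.

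Several members are neighbours in the genome. Ifit2, Ifit3, Ifit3b and Ifit1 lie in this order on chromosome 19, Ifitm2, Ifitm1 and Ifitm3 on chromosome 7, Gbp7, Gbp3 and Gbp2 on chromosome 3, and Rsad2 and Cmpk2 on chromosome 12. On chromosome 5, Oasl2 lies beside Oasl1 and Oas2 beside Oas3. Near-identical copies make some values uncertain, because the rule for reads that fit several genes is not given. Of the 50-base stretches in the transcript, Oas1a shared 57.6% with other genes (mostly Oas1g), Ifit3 51.2% and Ifit3b 45% (mostly with each other), Ifitm2 48.5%, Ifi204 30.2% and Herc6 23.8%.

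Total counts ranged from 17550170 to 30614583 per library. Levels are CPM (read counts scaled by library size) on the TMM scale, which adjusts each library so that most genes stay level, with factors from 0.8071 at P56 to 1.158 at E14.5. Given levels are mean ± SD over n = 3 libraries, and they are not divided by gene length. Genes were tested with edgeR's quasi-likelihood test in a fit of all 15 libraries, and called at a Benjamini-Hochberg adjusted p under 0.05 over all 14683 genes. In bulk RNA, fewer cells of a type and less RNA per cell cannot be told apart. All 8 macrophage markers were detected at every age, with a summed level of 8874 to 16604 CPM of the total count. P21 replicate 2 had the fewest genes with at least 10 counts (11254), and the correlation between P21 libraries was 0.843 to 0.896, against 0.93 to 0.948 at E14.5. Results without it are given below where they moved.

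Members rose at the steps from E14.5 to P3 and from P10 to P21, and none was called at the steps from P3 to P10 and from P21 to P56. From E14.5 to P3, 12 of 43 were called higher and 0 lower, where 1.67% of all tested genes were called higher. From P10 to P21, 8 were called higher and 0 lower, where 0.96% of all genes were called higher. Over the whole span from E14.5 to P21, 26 were called higher and 0 lower, beside 7.81% of all genes called higher. The median log2 change over the 43 was 0.75 from E14.5 to P3, 0.93 from P10 to P21 and 1.49 from E14.5 to P21, where the medians over all genes were 0.01, -0.01 and -0.01. All P3 libraries lay above all E14.5 libraries for 23 members, beside 13.4% of all genes, and all P21 libraries above all E14.5 libraries for 33, beside 16.1%. These comparisons share libraries with each other.

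**Figure D1:**
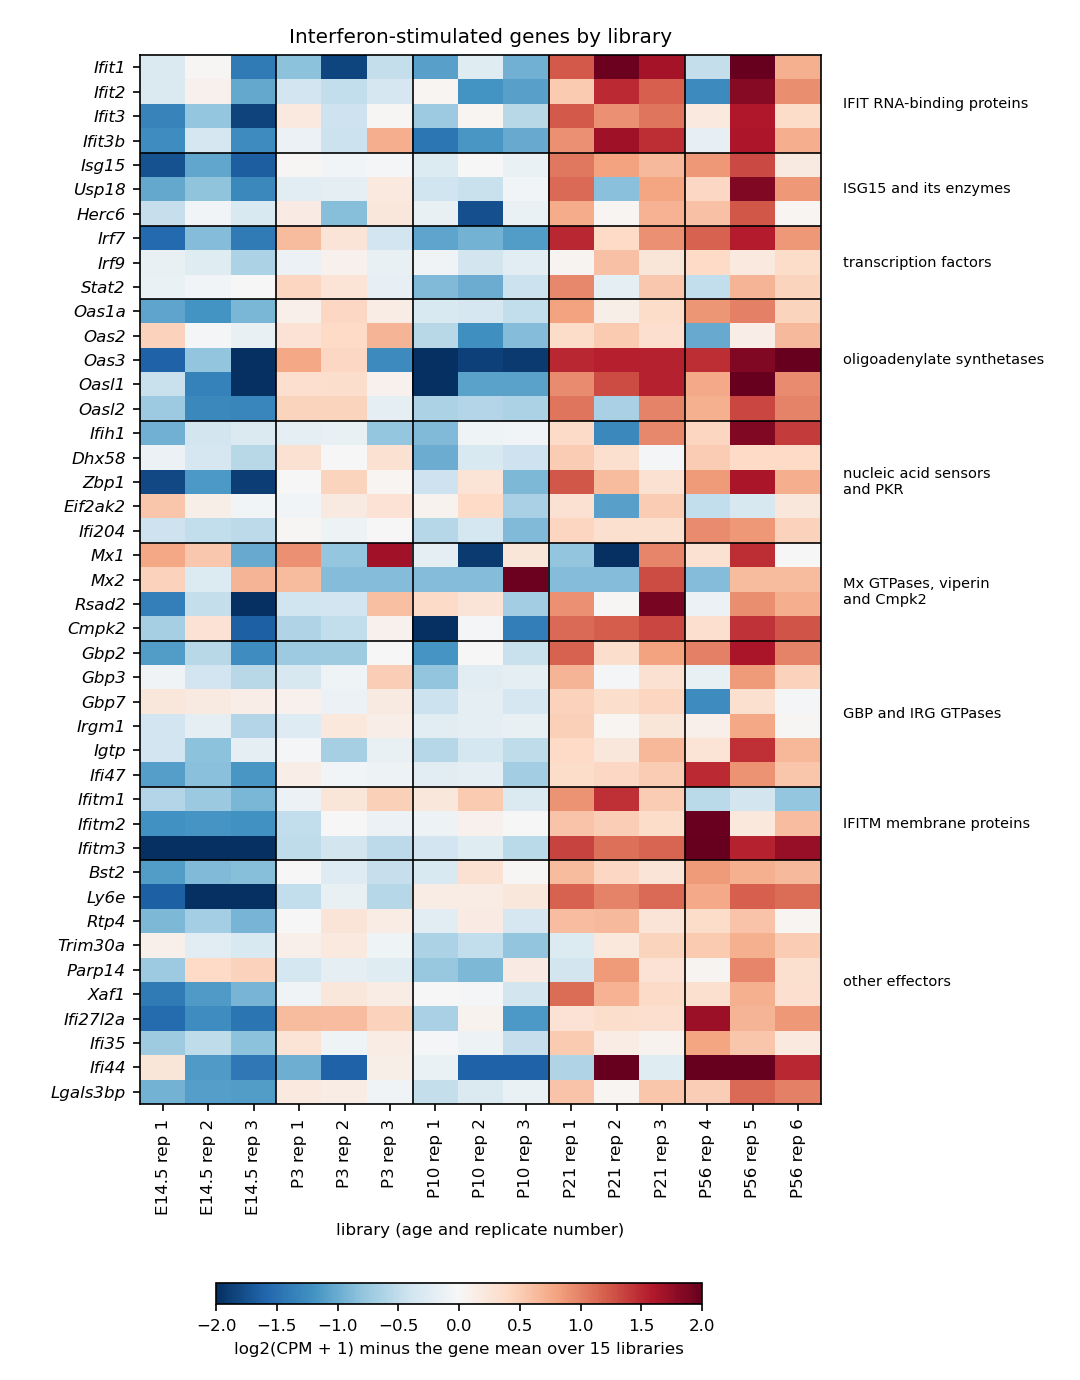
Levels of the 43 members in each of the 15 libraries, as log2(CPM + 1) minus the mean of the gene over all libraries, with members grouped by role. Most rows are blue at E14.5 and red at P21 and P56, and 18 of the 43 have their lowest mean among E14.5, P3, P10 and P21 at P10.

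Among the 4 ages from E14.5 to P21, 27 of 43 members differed by an F-test over the 12 libraries of these ages, beside 12.3% of all genes tested in that fit. The highest of the 4 means lay at P21 for 38 of 43 members (88.4%), and for 28.7% of all tested genes. It lay at P3 for Ifi27l2a, Oas2 and Mx1, at E14.5 for Eif2ak2 and at P10 for Mx2, which were named after their values were seen. The lowest of the 4 means lay at E14.5 for 23 members and at P10 for 18 (41.9%, beside 22.9% of all genes).

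Summed over the 43 members, the level in CPM of the total count, without TMM, was 3004 ± 214.8 for E14.5 and 5864 ± 322.2 for P3. It was 5394 ± 136.2 for P10, 9157 ± 688.9 for P21 and 9340 ± 767.7 for P56. Ly6e, the member with the most counts, took a large share of these sums. Without Ly6e they were 2351 ± 185.2, 4084 ± 66.9, 2935 ± 233.5, 4987 ± 405.1 and 5738 ± 699.4, so P10 lay well below P3 once Ly6e was left out.

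**Figure D2:**
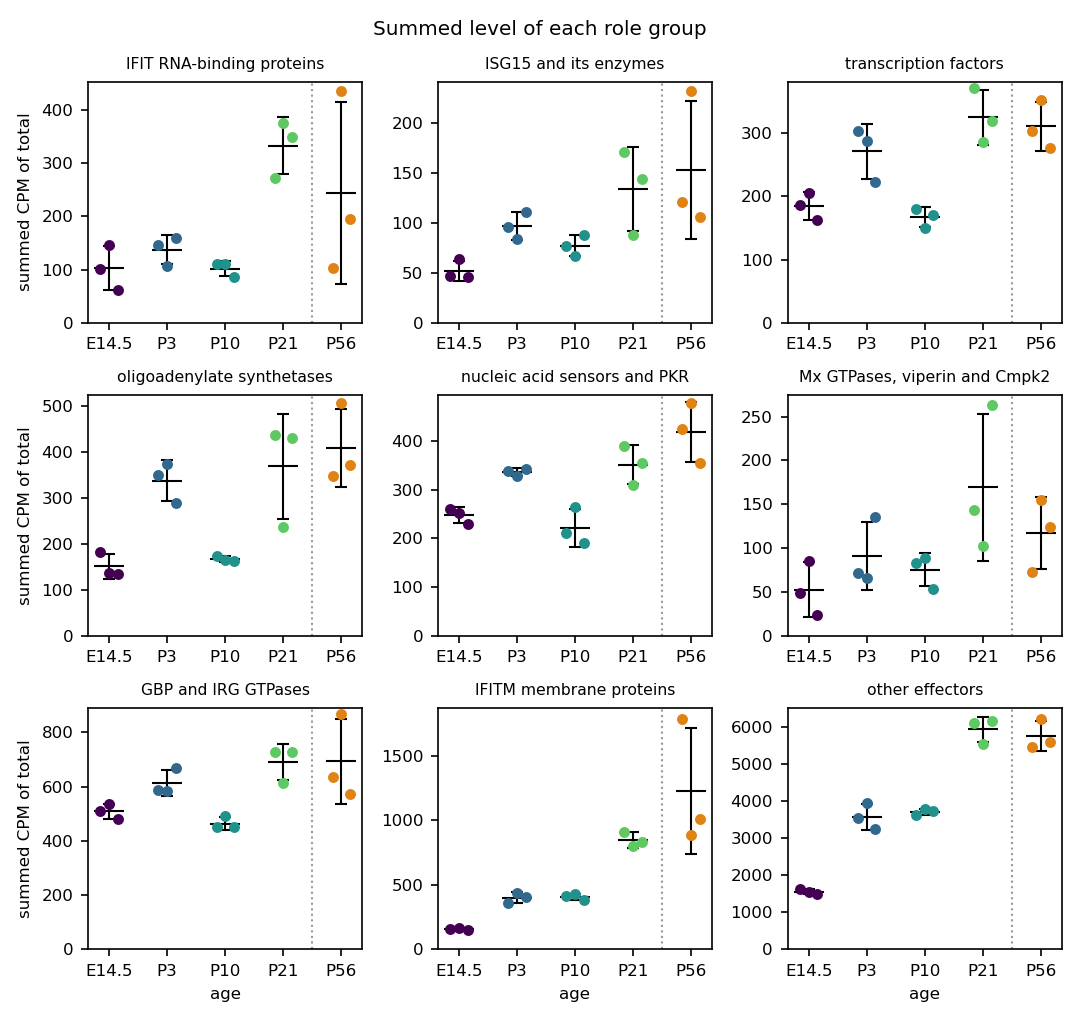
Summed level of each of the 9 role groups in CPM of the total count, by age. Points are the 3 libraries of an age, bars are mean and SD, and the dotted line sets off P56, which was sequenced in another project. The oligoadenylate synthetases had 337.1 ± 44.2 at P3, 167.1 ± 5.83 at P10 and 367.9 ± 113.4 at P21, while the IFITM group had 400.5 ± 39.5, 407.4 ± 23.5 and 847.3 ± 58.9.

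The IFIT proteins bind viral RNA ends and block its translation. Of the 4 members, 3 were called higher at P21 than at E14.5 (Ifit1, Ifit3 and Ifit3b), 1 at P21 than at P10 (Ifit3b), and none at P3 than at E14.5. Ifit1 had 21.8, 27.2 and 9.50 CPM in the E14.5 libraries, 14.7, 6.82 and 18.9 at P3, 12.1, 22.6 and 13.3 at P10, and 64.1, 107.9 and 87.5 at P21. The P21 libraries lay above every earlier library. Ifit1 was higher at P21 than at P3 by a log2 change of 2.68 ± 0.60 (SE, adjusted p = 0.0226) and than at E14.5 by 2.15 ± 0.58 (adjusted p = 0.0266). From P10 to P21 its log2 change was 2.43 ± 0.59, which did not pass.

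Ifit3 had 22.3, 33.6 and 15.3 CPM at E14.5, 66.5, 43.3 and 59.2 at P3, 34.8, 59.7 and 39.0 at P10, and 137.1, 110.7 and 122.7 at P21. Its P21 libraries again lay above all others of the 4 ages, and its rise from E14.5 to P21 was 2.38 ± 0.39 (adjusted p = 0.000978). Ifit3b, the near copy, had 5.69, 11.6 and 5.64 CPM at E14.5, 13.6, 10.9 and 25.2 at P3, 4.82, 6.06 and 6.92 at P10, and 29.0, 50.7 and 43.4 at P21. It rose by 2.79 ± 0.50 from P10 to P21 (adjusted p = 0.0194). Ifit2 had 39.6 ± 14.8 CPM at E14.5 and 111.0 ± 35.8 at P21 and was called in no comparison of 2 ages.

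ISG15 is a small protein that is attached to other proteins, USP18 removes it and also damps signalling at the type I receptor, and Herc6 encodes the ligase that attaches it in mice. Isg15 had 8.55, 14.6 and 9.19 CPM at E14.5, 31.6, 29.8 and 30.5 at P3, 25.4, 31.2 and 28.3 at P10, and 65.8, 54.8 and 49.3 at P21. The ages formed steps, with no overlap between E14.5 and the later ages or between P10 and P21. Isg15 rose by 1.51 ± 0.29 from E14.5 to P3 (adjusted p = 0.0134), and its further change of 1.0 ± 0.28 from P10 to P21 did not pass (adjusted p = 0.114). Usp18 had 20.4, 23.8 and 16.8 CPM at E14.5 and 94.0, 23.3 and 74.1 at P21. P21 replicate 2 lay within the E14.5 range, and the rise of 1.65 ± 0.44 (adjusted p = 0.0242) rested on replicates 1 and 3. Herc6 had 14.3 ± 2.20 CPM at E14.5 and 25.6 ± 6.68 at P21 and was not called in any comparison.

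The factors Irf7, Irf9 and Stat2 carry the signal and are themselves induced by it. Irf7, which drives the late wave of interferon genes, had 24.8, 40.5 and 27.4 CPM at E14.5, 116.8, 89.4 and 56.8 at P3, 35.5, 38.5 and 34.0 at P10, and 214.2, 98.3 and 141.8 at P21. It was high at P3 and P21 and low at E14.5 and P10, with no overlap between neighbouring ages. Irf7 rose by 1.5 ± 0.31 from E14.5 to P3 (adjusted p = 0.0225) and by 2.07 ± 0.32 from P10 to P21 (adjusted p = 0.0073). The difference between P10 and P3, -1.28 ± 0.31, did not pass (adjusted p = 0.118). Irf9, part of the complex that binds the ISRE, had 96.6 ± 16.4 CPM at E14.5 and 150.9 ± 29.5 at P21 (0.64 ± 0.17, adjusted p = 0.0214). Stat2, its partner, had mean levels of 34.6 ± 1.77, 41.6 ± 8.46, 21.1 ± 4.65 and 52.0 ± 20.2 CPM from E14.5 to P21 and was called in no comparison.

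**Figure D3:**
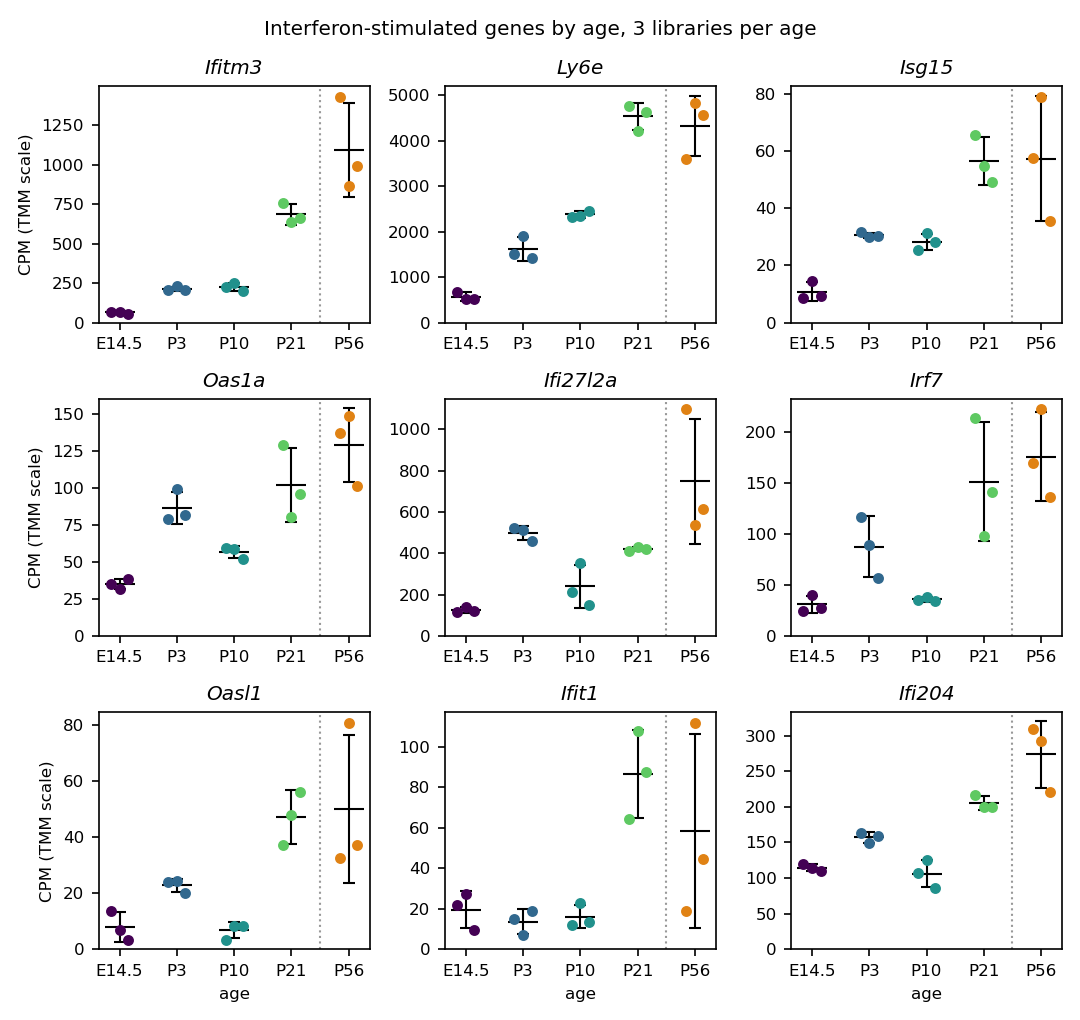
Levels of 9 members by age in CPM on the TMM scale. Points are the 3 libraries of an age, bars are mean and SD, and the dotted line sets off P56. Ifitm3 and Ly6e are above their E14.5 libraries at every later age, while the P10 libraries of Irf7, Oasl1 and Ifi27l2a all lie below their P3 libraries.

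The oligoadenylate synthetases answer double-stranded RNA with a messenger that turns on RNase L, while the related Oasl1 lacks this activity and holds back Irf7 translation. Oas1a had 35.2, 31.9 and 38.8 CPM at E14.5, 79.3, 99.2 and 81.8 at P3, 59.8, 58.6 and 52.4 at P10, and 129.4, 80.8 and 96.2 at P21. It rose by 1.30 ± 0.20 from E14.5 to P3 (adjusted p = 0.00349), and its P10 libraries lay between those of E14.5 and P3. Oas3 had 8, 38 and 0 counts in the E14.5 libraries, 203, 88 and 17 at P3, 1, 3 and 2 at P10, and 222, 214 and 230 at P21. With 6 counts over the 3 P10 libraries, against 666 at P21, it was called higher at P21 by 6.92 ± 1.39 (adjusted p = 0.0317).

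Oasl1 had 13.5, 6.74 and 3.24 CPM at E14.5, 23.9, 24.2 and 20 at P3, 3.35, 8.35 and 8.34 at P10, and 36.9, 47.7 and 56.1 at P21. Like Irf7 it was high at P3 and P21, and Oasl1 rose by 2.82 ± 0.52 from P10 to P21 (adjusted p = 0.0231). Oas2 had 35.8 ± 5.25 CPM at P3, 13.7 ± 3.41 at P10 and 34.4 ± 2.62 at P21. Oas2 differed among the 4 ages by the F-test but was called in no comparison of 2 ages, with a log2 change of 1.33 ± 0.36 from P10 to P21 (adjusted p = 0.103). Oasl2 was called higher at P21 than at E14.5 (1.75 ± 0.36, adjusted p = 0.00516), with 82.6 CPM in P21 replicate 2 beside 274.3 and 259.7 in the other P21 libraries. In all, 4 of the 5 members were called higher at P21 than at E14.5.

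Of the 5 members that sense nucleic acids, the kinase PKR (Eif2ak2) among them, 2 were called higher at P21 than at E14.5. Zbp1, a sensor of Z-form nucleic acid that can trigger cell death, had 7.64, 12.6 and 7.17 CPM at E14.5, 29.0, 39.7 and 29.8 at P3, 21.5, 35.4 and 15.1 at P10, and 69.7, 45.8 and 35.9 at P21. It rose by 1.84 ± 0.38 from E14.5 to P3 (adjusted p = 0.0211), with every later library above those of E14.5. Ifi204, a DNA sensor of the p200 family, had 107.6, 125.0 and 86.3 CPM at P10 and 216.4, 199.3 and 199.4 at P21, a rise of 0.95 ± 0.15 (adjusted p = 0.00934). Dhx58, which encodes the RNA helicase LGP2, had 65.9 ± 8.05 CPM at P3, 38.9 ± 9.47 at P10 and 69.6 ± 12.7 at P21 without a call. Eif2ak2 had 24.2 to 32.2 CPM as the lowest and highest mean of the 5 ages and Ifih1, the gene of the RNA sensor MDA5, 15.9 to 60.2, and neither was called.

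The Mx GTPases, which trap viral particles, were low and uneven. Mx1 ranged from 0 counts in P21 replicate 2 to 330 in P3 replicate 3, with 1725 counts over all 15 libraries. Mx2, the member with the lowest mean level, had 0 counts in 7 of 15 libraries and 423 in all. C57BL/6J mice are known to carry a defective Mx1 allele. Rsad2, the gene of viperin, had 20.5, 38.6 and 10.4 CPM at E14.5 and 103.5, 55.6 and 205.5 at P21, a rise of 2.39 ± 0.55 (adjusted p = 0.0111). Its neighbour Cmpk2, a mitochondrial nucleotide kinase gene, had 4.12, 23.0 and 8.55 CPM at P10 and 53.3, 56.5 and 61.7 at P21. The Cmpk2 libraries did not overlap, but its log2 change of 2.27 ± 0.59 did not pass (adjusted p = 0.0887).

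The GBP and IRG GTPases, which attack the vacuoles of intracellular microbes and answer mainly to interferon gamma, had 2 of 6 members called higher at P21 than at E14.5. Gbp2 had 15.9, 23.9 and 14.6 CPM at E14.5 and 82.4, 46.1 and 63.4 at P21 (1.82 ± 0.36, adjusted p = 0.00386). Ifi47 had 54.99, 65.98 and 52.6 CPM at E14.5, 130.6, 113.8 and 111.1 at P3, and 152.6, 158.3 and 168.9 at P21. It rose already by P3, by 1.03 ± 0.21 (adjusted p = 0.0205). Gbp7 had 179.2 ± 5.91 CPM at E14.5, 126.8 ± 10.5 at P10 and 210.9 ± 8.79 at P21 without a call between 2 ages. Gbp3, Irgm1 and Igtp were not called between 2 ages either, with P21 means of 55.2, 172.9 and 86.8 CPM beside 34.2, 110.4 and 46.4 at E14.5.

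The IFITM proteins sit in membranes and stop viruses from fusing with them. All 3 members were called higher at P21 than at E14.5. Ifitm3 had 69.1, 69.2 and 54.6 CPM at E14.5, 207.1, 229.2 and 205.0 at P3, 227.2, 250.9 and 202.8 at P10, and 759.0, 634.3 and 661.1 at P21. It moved in 2 steps, with P3 and P10 overlapping. The log2 changes were 1.73 ± 0.17 from E14.5 to P3 (adjusted p = 0.000134), 1.59 ± 0.17 from P10 to P21 (adjusted p = 0.000742) and 3.41 ± 0.19 over the whole span (adjusted p = 5.09e-08). At P56 it had 1429, 862.7 and 989.0 CPM, above all P21 libraries, but the log2 change of 0.68 ± 0.17 did not pass (adjusted p = 0.131).

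Ifitm2 had 71.9, 73.5 and 72.0 CPM at E14.5, 156.2, 177.2 and 167.1 at P10, and 249.8, 235.1 and 217.5 at P21, with no overlap. It was higher than at E14.5 by 1.20 ± 0.33 at P10 (adjusted p = 0.034) and by 1.69 ± 0.33 at P21 (adjusted p = 0.00378). Ifitm1, scarce throughout with 518 counts in all, had 28 counts over the E14.5 libraries and 215 over the P21 libraries (3.29 ± 0.96, adjusted p = 0.0376). At P56 it had 10, 14 and 6 counts, all below the 67, 101 and 47 of the P21 libraries, and the Ifitm1 log2 change of -2.68 ± 0.94 did not pass (adjusted p = 0.272).

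Of the 10 other effectors, 7 were called higher at P21 than at E14.5 and 6 already at P3. Ly6e, a membrane-anchored protein that blocks coronavirus fusion, had the highest mean level of the 43. It had 679.8, 524.1 and 514.8 CPM at E14.5, 1506, 1909 and 1418 at P3, 2332, 2353 and 2465 at P10, and 4765, 4209 and 4635 at P21. Each age lay above the one before with no overlap. Ly6e rose by 1.49 ± 0.15 from E14.5 to P3 (adjusted p = 0.000114) and by 0.93 ± 0.14 from P10 to P21 (adjusted p = 0.00752), and the difference of 0.56 ± 0.14 between P10 and P3 did not pass (adjusted p = 0.138).

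Ifi27l2a followed another course. It had 114.5, 140.3 and 121.3 CPM at E14.5, 520.6, 514.3 and 459.8 at P3, 213.7, 353.4 and 150.9 at P10, and 411.4, 429.4 and 422.5 at P21. It rose by 1.99 ± 0.29 from E14.5 to P3 (adjusted p = 0.00257), and all P10 libraries lay below all P3 libraries (-1.06 ± 0.28, adjusted p = 0.165). Bst2, the gene of tetherin, which holds budding virus at the cell surface, had 142.7, 168.1 and 170.8 CPM at E14.5, 313.3, 260.2 and 225.5 at P3, and 479.6, 414.6 and 371.6 at P21. Its rises were 0.73 ± 0.17 to P3 (adjusted p = 0.0366) and 1.39 ± 0.17 to P21 (adjusted p = 9.13e-05).

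Xaf1, which promotes cell death, had 16.4, 20.01 and 23.3 CPM at E14.5, 43.2, 53.2 and 50.1 at P3, and 99.6, 73.8 and 59.4 at P21. It rose by 1.29 ± 0.22 to P3 (adjusted p = 0.00795) and 1.96 ± 0.23 to P21 (adjusted p = 6.68e-05). Lgals3bp, which encodes a secreted galectin-binding protein, had 187.2, 168.1 and 166.9 CPM at E14.5 and 416.7, 402.3 and 343.5 at P3 (1.15 ± 0.18, adjusted p = 0.00371). Rtp4 also rose to P3 (0.98 ± 0.17, adjusted p = 0.00993), and Ifi35 was called only over the whole span (0.95 ± 0.20, adjusted p = 0.00657). Trim30a rose from P10 to P21 (0.80 ± 0.18, adjusted p = 0.0486). Parp14 and Ifi44 were called nowhere. Ifi44 had 290 counts in P21 replicate 2 beside 21 and 33 in the other P21 libraries, and 0 in P3 replicate 2 and in P10 replicates 2 and 3.

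**Figure D4:**
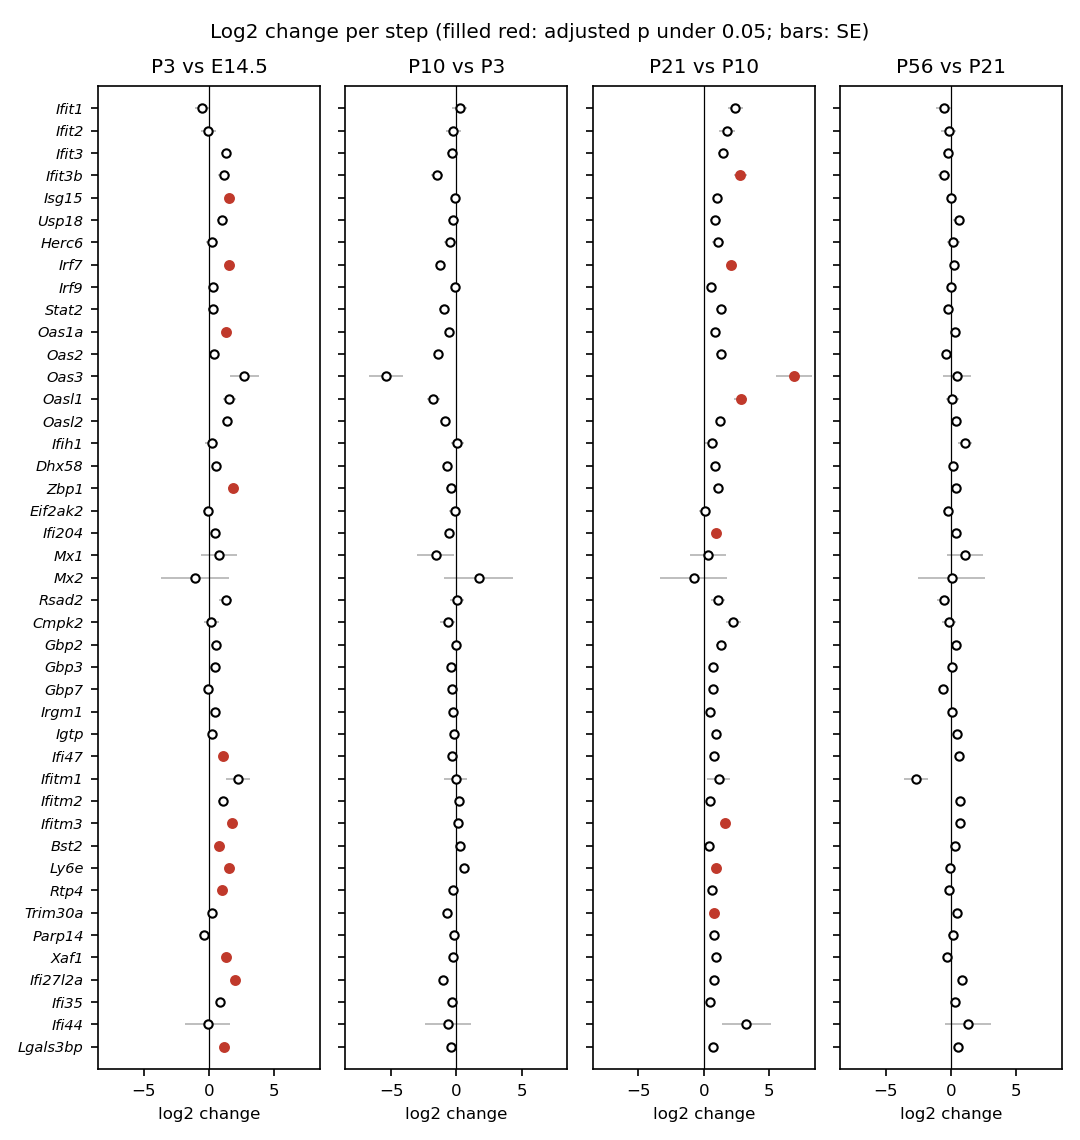
Log2 change of each member at the 4 steps between neighbouring ages, with SE bars. Filled red points passed the test, 12 from E14.5 to P3 and 8 from P10 to P21, and none did from P3 to P10 or from P21 to P56.

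Only Ifitm3, Irf7 and Ly6e were called at both rising steps, 3 of the 12 from E14.5 to P3 and 3 of the 8 from P10 to P21. The calls of Ifitm3, Ly6e, Oas1a, Xaf1, Ifi27l2a and Lgals3bp from E14.5 to P3 were kept whichever library was left out. Of the others, Isg15 was lost without E14.5 replicate 1 or 3, Rtp4 without P3 replicate 2, Irf7 without E14.5 replicate 1 or 3 or P3 replicate 1 or 2, and Zbp1 without E14.5 replicate 1 or 3 or P3 replicate 2 or 3. Bst2 was lost without any of these libraries but P3 replicate 3, and Ifi47 without any of the 6. The count of 12 became 7 without E14.5 replicate 1, without E14.5 replicate 3 and without P3 replicate 2.

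At the step from P10 to P21 the count of 8 rested more on P10 replicate 1, without which only Ifitm3 was called (1 member). Irf7, Ly6e and Ifi204 were lost only there, with adjusted p of 0.0508, 0.0508 and 0.0524. The count was 4 without P10 replicate 2, 4 without P10 replicate 3 and 5 without P21 replicate 2. Ifit3b and Oasl1 were lost in each of these 4 cases, Oas3 without any P10 library or P21 replicate 1 or 2, and Trim30a without any P10 library or P21 replicate 2 or 3. DESeq2 called 24 members at this step and the edgeR fit without the P56 libraries, added after the data were seen, called 17. Neither count can be set against all genes, since the all-gene counts of these fits are not given here. For 32 of 43 members every P21 library lay above every P10 library, beside 8.8% of all genes, and for 0 below, beside 8.92%.

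From E14.5 to P21, 20 of the 26 calls were kept whichever library was left out. Ifit1 was lost without E14.5 replicate 1 or 3 or P21 replicate 2, Irf9 without E14.5 replicate 2 or 3 or P21 replicate 2, and Oas3 without E14.5 replicate 1 or P21 replicate 1 or 2. Rsad2 was lost without E14.5 replicate 1, Usp18 without any library of both ages but P21 replicate 2, and Ifitm1 without any but P21 replicate 3. The direct comparison of P21 with P3 called 4 members higher (Ifit1, Ifitm3, Bst2 and Ly6e) and 0 lower, where 2.7% of all genes were called higher and 0.94% lower, with a median over the 43 of 0.65. All P21 libraries lay above all P3 libraries for 19 members, beside 10.6% of all genes, and below them for 1, beside 11.2%. Ifit1 was lost there without any P3 library or P21 replicate 2, and Bst2 without P3 replicate 2 or 3 or P21 replicate 1 or 2. The count was 2 without P3 replicate 2, P3 replicate 3 or P21 replicate 2.

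At P10, 10 members were called higher than at E14.5 and 0 lower, where 5.81% of all genes were called higher. They were Isg15, Oas1a, Zbp1, Ifitm2, Ifitm3, Bst2, Ly6e, Rtp4, Xaf1 and Lgals3bp, and the median over the 43 was 0.22. This median was 0.41 without E14.5 replicate 1, 0.14 without E14.5 replicate 3 and 0.11 without P10 replicate 3. All P10 libraries lay above all E14.5 libraries for 17 members, beside 17.8% of all genes, and below them for 4, beside 17.6%. The calls of Isg15, Ifitm3, Bst2, Ly6e and Xaf1 were kept whichever library was left out. Oas1a and Ifitm2 were lost without any of the 6, Rtp4 without E14.5 replicate 1 or 3 or P10 replicate 2, Zbp1 without E14.5 replicate 1 or 3 or P10 replicate 1 or 2, and Lgals3bp without E14.5 replicate 2 or 3 or P10 replicate 2 or 3. The count was 5 without E14.5 replicate 3 or P10 replicate 2 and 6 without E14.5 replicate 1. For P10 against E14.5, DESeq2 called 13 higher and 1 lower, and the fit of only these 2 ages 11 and 1. The fit without the P56 libraries called 12 higher and 2 lower. Shares over all genes in these alternative fits are not given here.

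From P3 to P10 no member was called by edgeR, where 0.341% of all genes were called higher and 0.0613% lower. The median was -0.34 over the 43 and 0.01 over all genes. At an unadjusted p under 0.05 there were 14 of 43 members, beside 1470 of 14683 genes. DESeq2 called 1 member higher and 8 lower, and limma voom called 0, with the shares over all genes in these fits not given here. All P10 libraries lay below all P3 libraries for 15 of 43 members, beside 9.35% of all genes, and above them for 1, beside 9.8%. The 15 included all 5 oligoadenylate synthetases, with log2 changes of -0.61 for Oas1a, -0.88 for Oasl2, -1.38 for Oas2, -1.77 for Oasl1 and -5.38 for Oas3. The IFITM members had changes of -0.04 to 0.18 at the same step.

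From P21 to P56, the step between sequencing projects, no member was called by edgeR, where 0.102% of all genes were called higher and 0.17% lower. The median was 0.17, or 0.10 without P21 replicate 2, 0.28 without P21 replicate 1, 0.27 without P56 replicate 6 and 0.01 without P56 replicate 5. In the fit of all libraries 8 of 43 members had an unadjusted p under 0.05, beside 1715 of 14683 genes. DESeq2 called 1 member higher and 1 lower, and limma voom called 0, with the shares over all genes in these fits not given here. All P56 libraries lay above all P21 libraries for 6 members, beside 6.76% of all genes, and below them for 2, beside 6.22%. The P56 libraries differed among themselves. P56 replicate 5 was the highest of the 3 for 30 of 43 members, where it was the highest for 29.5% of all genes. P56 replicate 4 was the highest for 9 of 43, beside 40.4% of all genes, and the lowest for 22 of 43, beside 43%. Ifit1 had 19.1, 111.7 and 44.5 CPM in P56 replicates 4, 5 and 6, and Ifit2 20.3, 180.6 and 96.6. The 9 members that were highest in replicate 4 included Ifitm2 (663.1 CPM, beside 194.7 and 259.2), Ifi27l2a (1097, beside 535.9 and 613.3) and Ifi47 (334.2, beside 222.5 and 174.9). P56 replicate 4 had a summed level of the 7 monocyte markers of 460.1 CPM of the total, beside 52.3 and 107.1 in the other P56 libraries. It also had the lowest macrophage marker sum, 8874 beside 16082 and 16604. P56 replicate 5 had a mast cell marker sum of 283.2, beside 10.2 and 15.6. The part of these cells in the P56 values was not tested.

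Markers of other cell types also moved with age. The 7 monocyte markers summed to between 18.1 and 36.7 CPM of the total in the E14.5 libraries, 45.8 to 57.2 at P3, 23.5 to 63.2 at P10, with Ly6c2 and Chil3 at 0, and 79.2 to 141.2 at P21. The 7 mast cell markers summed to 1.91 to 119.4 at E14.5, 628.4 to 1739 at P3, 172.4 to 431.5 at P10 and 3.95 to 10.8 at P21, with Ms4a2 and Fcer1a at 0 at P21. The 7 fibroblast markers summed to 62.4 to 695.6 at E14.5, 530.4 to 2449 at P3, 658.4 to 2707 at P10 and 996.3 to 1838 at P21. The plasmacytoid dendritic cell markers, without Bst2, summed to between 189.7 and 242.2 in the E14.5 libraries and between 251.3 and 349.9 in the P21 libraries, where Ccr9, Spib, Klk1 and Ly6d were at 0. The 7 erythroid markers lay between 106.3 and 117.8 in the E14.5 libraries, 108.5 and 264.1 at P3, 8.62 and 126.9 at P10, and 1.81 and 5.34 at P21. The 7 conventional dendritic cell markers lay between 20.2 and 27.4 at E14.5 and between 42.5 and 135.7 at P21, with Xcr1 and Clec9a at 0 there. The 7 B cell markers lay between 507.2 and 647.9 at E14.5, 284.3 and 460.8 at P3, 668.9 and 733.1 at P10, and 779 and 915.3 at P21, with Ms4a1 at 0 at P21. The 6 microglia markers, some shared with other macrophages, lay between 3238 and 3591 at E14.5, 3090 and 3919 at P3, 4183 and 4857 at P10, and 5037 and 5376 at P21. The 8 neutrophil markers summed to 91.4 and 215.5 in P3 replicates 1 and 2 and to at most 22.6 in any other library. The part of these cells in the levels of the members was not tested.

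Few reads were assigned to interferon ligand genes. None of the 14 listed ligand genes passed the filter, and 10 had 0 counts in all 15 libraries, which allows up to 0.00881 CPM each over 340481492 counts (3 counts, counting error only). That limit covers assigned reads only, since a read that fits several genes may not have been counted. Ifna1 shared 67.4% of its 50-base stretches with other genes, Ifna6 55.9%, Ifna5 52.2%, Ifnl3 38.8% and Ifnl2 31.7%, while Ifnb1, Ifnk and Ifne shared 0%. Trex1, a nuclease gene that macrophages are known to express, also had 0 counts in all libraries, and it shared 95.6% of its stretches with Atrip. The other 4 ligand genes had 39 counts in all, 30 of them in Ifnb1, with 17 of these in P10 replicate 3. Such counts do not show which cells would make interferon, since other cells of the dura were not measured.

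Of the 6 listed receptor genes, 5 were detected at every age. The other, the lambda interferon receptor gene Ifnlr1, had 0 counts in all libraries. From E14.5 to P56 the mean levels of Ifnar1 were 186.9 ± 14.2, 137.6 ± 48.1, 123.2 ± 33.7, 121.3 ± 40.6 and 160.8 ± 43.6 CPM, and those of Ifnar2 258.5 ± 50.2, 243.7 ± 40.0, 285.9 ± 12.9, 297.3 ± 38.7 and 357.6 ± 19.8. Neither was called in any comparison, and their log2 changes from E14.5 to P21 were -0.62 ± 0.30 and 0.20 ± 0.16. Ifngr1 was called higher at P21 than at E14.5 (0.51 ± 0.14, adjusted p = 0.0288), a call lost without E14.5 replicate 2 or 3 or P21 replicate 1 or 3, and Ifngr2 was not called. Il10rb, a chain shared by the receptors of lambda interferons and IL-10, had 233.2 ± 17.7 CPM at E14.5 and rose to 472.2 ± 35.1 by P21 (1.02 ± 0.11, adjusted p = 2.99e-05).

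**Figure D5:**
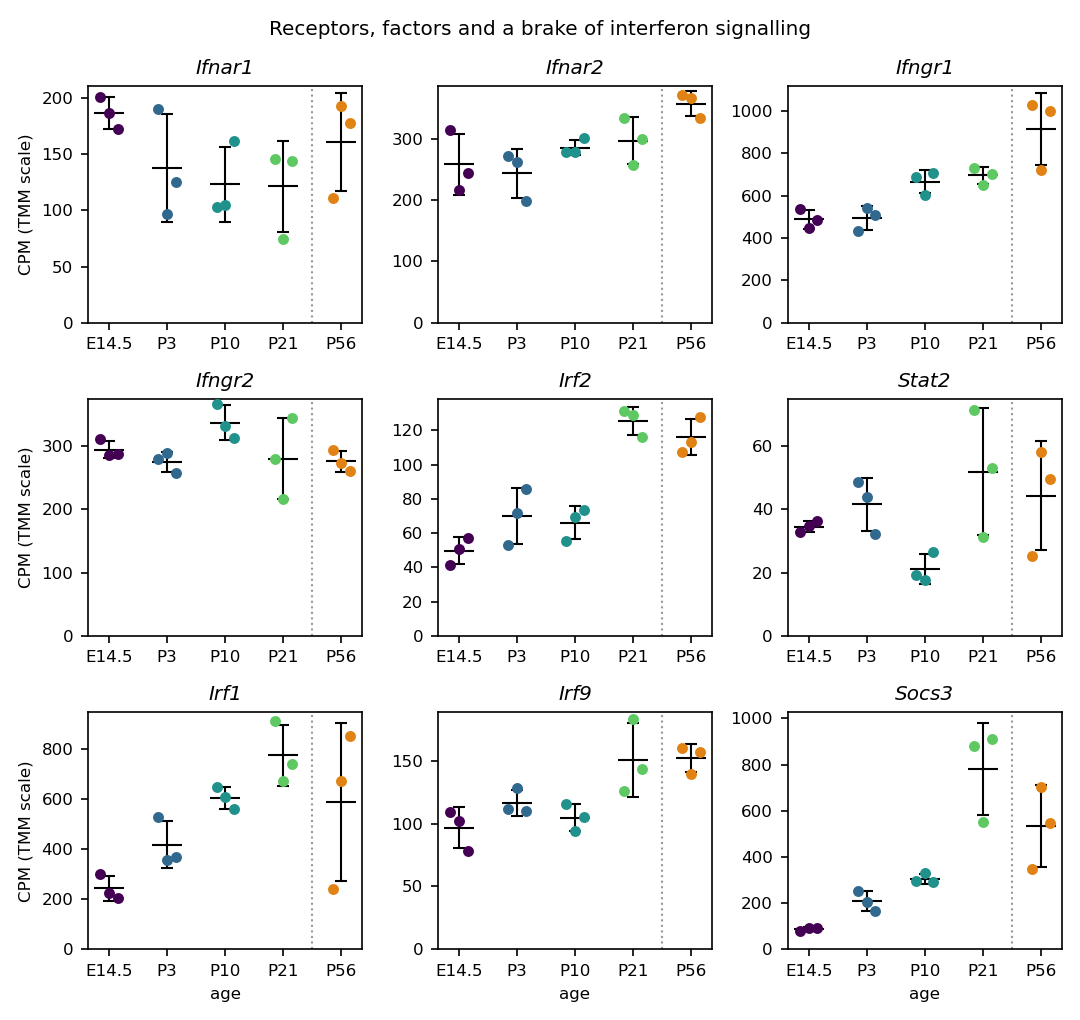
Levels of receptor, factor and brake genes by age in CPM on the TMM scale, including the members Stat2 and Irf9. Points are the 3 libraries of an age, bars are mean and SD, and the dotted line sets off P56. Irf2 has its highest mean of the 5 ages at P21, and Socs3 goes from 87.8 ± 7.99 at E14.5 to 781.5 ± 199.2 at P21.

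Among the signalling factors outside the members, Irf1, Irf2, Irf5 and Stat3 were called higher at P21 than at E14.5. Stat3 was lost without any E14.5 library or P21 replicate 1 or 3. Irf1 rose by 1.67 ± 0.34 (adjusted p = 0.00502) and Irf2, which competes with it, by 1.34 ± 0.19 (adjusted p = 0.000385) from E14.5 to P21. Irf5, a factor below the Toll-like receptors, rose by 0.56 ± 0.14 (adjusted p = 0.0148), a call lost without E14.5 replicate 1 or P21 replicate 1.

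Of 8 brakes, only Socs3 was called. Socs3, an inhibitor of cytokine receptor kinases that acts mainly below IL-6 family receptors, had 78.6, 91.4 and 93.3 CPM at E14.5, 252.0, 202.3 and 166.3 at P3, 293.4, 329.4 and 291.8 at P10, and 880.9, 552.3 and 911.4 at P21. It rose by 3.15 ± 0.26 from E14.5 to P21 (adjusted p = 2.71e-06). Socs1, the closer brake on interferon receptors, had 4.39 ± 0.76 CPM at E14.5 and 6.46 ± 1.33 at P21 and was not called.

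Of the 17 tested genes of nucleic acid sensing upstream of interferon, 3 were called higher at P21 than at E14.5 (Unc93b1, Sting1 and Samhd1). The share of all genes called higher was 7.81%. Called lower were 2 (Tbk1 and Ikbke), where 4.37% of all genes were called lower. Samhd1 was lost without E14.5 replicate 2 or 3 or P21 replicate 1. Unc93b1, which carries Toll-like receptors to endosomes, rose by 1.0 ± 0.13 (adjusted p = 0.000233), and Sting1, the adaptor below the DNA sensor cGAS, by 1.5 ± 0.26 (adjusted p = 0.00142). Cgas itself had 41.5, 33.7 and 41.4 CPM at E14.5, 9.002, 3.636 and 8.55 at P10, and 20.2, 30.8 and 24.6 at P21. It was lower at P10 than at E14.5 (-2.46 ± 0.40, adjusted p = 0.00194). It rose from P10 to P21 (1.84 ± 0.40, adjusted p = 0.0417), a call lost without any of these 6 libraries. Ikbke, a kinase related to Tbk1, had 368 counts over the E14.5 libraries, 115 at P10, 1 at P21 and 218 at P56.

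A list of 60 further interferon-stimulated genes gave 55 tested genes. Of these, 7 were called higher from E14.5 to P3, 5 from P10 to P21 and 22 from E14.5 to P21. Over all genes 1.67%, 0.96% and 7.81% were called higher. Called lower were 0, 0 and 1 (Slfn9), beside 0.388%, 0.184% and 4.37% of all genes. The medians were 0.37, 0.90 and 1.14, beside 0.01, -0.01 and -0.01 over all genes. The call of Slfn9 was lost without E14.5 replicate 2 or 3 or P21 replicate 1 or 2. Epsti1 rose by 2.48 ± 0.21 from E14.5 to P21 (adjusted p = 3.12e-06), from 38.0 ± 5.97 to 212.1 ± 36.4 CPM. The chemokine gene Ccl12 rose by 1.73 ± 0.18 (adjusted p = 2.79e-05). The p200 family genes Ifi203 and Ifi209, relatives of Ifi204, rose by 3.23 ± 0.34 (adjusted p = 3.08e-05) and 2.63 ± 0.31 (adjusted p = 6.97e-05). The ISRE letters stood in 27 of the 49 listed genes with a promoter entry (55.1%).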

How the data were processed

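The authors deposited raw read counts per gene symbol for 15 bulk RNA-seq libraries of sorted cells. Per the labels' protocols, cDNA was made from low-input RNA with a SMARTer kit and libraries with Nextera XT, and no molecular identifiers are named, so limits cover counting error only. Tools named in the submitters' processing notes are featureCounts 2.0.2, STAR 2.7.8a and bcl2fastq 2.18. Genome build, annotation, strand setting and how reads with several matches were counted are not given in the sources used here.

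Counts were tested with edgeR 4.0.16 (limma 3.58.1, R 4.3.3): TMM scaling, filterByExpr by age, a robust quasi-likelihood fit with age as the only term, and Benjamini-Hochberg adjustment over all tested genes in each of 7 comparisons, plus an F-test over 12 libraries. P-values measure the spread between libraries. The steps were tested on simulated data. Members and lists were chosen with earlier results of these data known. Members given in full were up to 4 called per comparison with the smallest p, up to 3 per role group with the smallest F-test p, and those with the highest and lowest mean. Of each pathway list, up to 4 called genes were named, and the main receptors always; other listed genes were named after their values were seen, and 1 listed gene is not reported here. Shared 50-base stretches were counted in GENCODE M21 transcripts. Alternatives were RLE, upper quartile and no scaling, no filter, 5 CPM in 3 libraries, fits of only 2 ages, a block for the replicate number, each library left out in turn, limma voom and DESeq2 1.42.0. A fit without the P56 libraries and sums without Ly6e or 1 library were added after seeing the data.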

Additional observations from a re-analysis of the deposited data

How the results depend on the processing

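No named result reversed under any alternative. Of 5262 values of named genes under an alternative, 4936 stayed on their side of the threshold, 189 lost the call and 137 gained one. Counts of members called moved by over 1.5 times with DESeq2 for P10 vs P3 (9 against 0), P21 vs P10 (24 against 8), P56 vs P21 (2 against 0) and P21 vs P3 (8 against 4), without a filter for P10 vs P3 (3), and without the P56 libraries for P10 vs P3 (1) and P21 vs P10 (17). The cause was not tested, and the counts over all genes in these fits are not given here. With 1 library left out, the counts were 7 to 10 for P3 vs E14.5, 1 to 8 for P21 vs P10, 2 to 4 for P21 vs P3 and 5 to 9 for P10 vs E14.5. The medians over the members then ranged from 0.68 to 0.94 for P3 vs E14.5, -0.39 to -0.26 for P10 vs P3, 0.89 to 0.99 for P21 vs P10, 0.01 to 0.28 for P56 vs P21, 1.38 to 1.57 for P21 vs E14.5, 0.49 to 0.69 for P21 vs P3 and 0.11 to 0.41 for P10 vs E14.5. Without a scaling factor, the median over the members was -0.45 for P10 vs P3, 0.76 for P21 vs P10, 1.18 for P21 vs E14.5 and 0.38 for P21 vs P3, and the median over all genes shifted to -0.18 for P21 vs P10, -0.13 for P56 vs P21 and P10 vs E14.5, -0.32 for P21 vs E14.5 and -0.28 for P21 vs P3. Calls over all genes then split into 747 higher and 1493 lower for P21 vs E14.5 (1147 and 642 with TMM), 232 and 453 for P21 vs P3 (396 and 138), 69 and 75 for P21 vs P10 (141 and 27), 589 and 727 for P10 vs E14.5 (853 and 463), 39 and 16 for P10 vs P3 (50 and 9) and 11 and 61 for P56 vs P21 (15 and 25), and the members for P10 vs E14.5 into 6 and 1. With upper quartile factors the median over all genes was 0.11 for P10 vs E14.5. The median of the members for P21 vs P3 was 0.53 with limma voom and 0.56 with the replicate block. Over all tested genes, same-numbered libraries did not deviate together (r of -0.0553 to 0.0618 over 18 pairs). The numbers were therefore used to name libraries only, though such correlations cannot show whether some genes share an effect. With the replicate number as a block, 12 members were called for P3 vs E14.5, 0 for P10 vs P3 and 12 for P21 vs P10. The blocked counts were 27 for P21 vs E14.5, 4 for P21 vs P3 and 13 for P10 vs E14.5. The 13 were 11 higher and 2 lower, and the calls of the other blocked comparisons were all higher. In that fit 27 members differed among the 4 ages. P56 carries other numbers, so that step has no blocked value. Without Ly6e the summed levels were 2351, 4084, 2935, 4987 and 5738 CPM of the total from E14.5 to P56. Members with few counts, such as Mx1, Mx2, Ifi44, Ifitm1 and Oas3, have wide errors at this depth.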
